A study of Rattus norvegicus with 35 samples.

Results

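The proteasome is the protease that degrades most proteins tagged with ubiquitin in the cytosol and nucleus. Its genes on the array were taken by symbol: Psma, Psmb, Psmc, Psmd, Psme, Psmf or Psmg followed by a digit. Psmb8 and Psmb9, inducible subunits of the same particle, were not counted among them. The symbols gave 41 of the 10411 genes measured. Of these, 39 fall into 6 roles: 7 alpha and 7 beta subunits of the 20S core, 5 ATPases and 9 other subunits of the 19S particle, 4 regulators and 7 assembly chaperones. The other members, Psmc3ip and Psme3ip1, are named after partners of proteasome proteins and are not subunits. A gene read by several probe sets is represented by the one with the highest mean over all arrays.

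Expression was measured in 35 rat mammary tissues, 24 tumours that the labels describe as frozen and induced with N-methyl-N-nitrosourea (NMU), and 11 normal glands. NMU is an alkylating carcinogen that induces hormone-responsive mammary carcinomas in rats. The normal glands comprise 8 with titles beginning NewN and 3 others titled X27.1N, X28.1N and Young, and the labels give no strain, age, genotype, carcinogen treatment or storage for them. No label ties a sample to an animal, so the p-values measure only the spread between these samples, which may be technical.

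The 20S core is a barrel of stacked rings, in which the alpha subunits form the outer rings and gate the entrance and the beta subunits form the inner rings, some of them carrying the proteolytic sites. The 19S particle caps the barrel, binds ubiquitin chains, removes them and unfolds the substrate with a ring of ATPases. Other caps and inhibitors replace or oppose the 19S particle, and dedicated chaperones build the rings. In cells exposed to interferon the catalytic beta subunits are exchanged for inducible ones, which changes the peptides made for MHC class I.

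The tissues differed in their cells as well as in the state of those cells. Adipocyte markers were lower in tumours for 8 of 8 measured genes, with summed signals of 245 to 4585 in tumours and 10214 to 28196 in normal glands; Lep lay at the floor on all 24 tumour arrays. Luminal epithelial markers were higher for 6 of 10, with sums of 843 to 28621 in tumours and 4044 to 12073 in normal glands, and the lowest sum was that of the tumour X22L. Markers of dividing cells were higher for 8 of 9, while 9 of 9 skeletal muscle and 4 of 6 macrophage markers were lower. These are limma calls at an adjusted p under 0.05, beside 31.4% of all genes higher and 27.6% lower. Against the NewN glands alone, 2 of 10 luminal and 9 of 9 dividing-cell markers were called higher (31.4% of all genes). Against the 3 other normal glands they were 5 of 10 and 0 of 9 (6.87% of all genes), with 1 of 9 at an unadjusted p under 0.05. In bulk tissue, fewer cells of a type and less RNA per cell cannot be told apart, and the part of cell composition in the differences reported here was not tested. The 90th percentile of signal was 599 ± 46.3 on tumour arrays and 721 ± 38 on normal arrays (SD, n = 24 and 11), with medians between 158 and 176 on all arrays. Changes in the proteasome genes are given on the deposited scaling and after quantile normalization, which gives every array the same distribution of values. The Gapdh 3'/5' signal ratio, a sign of RNA integrity and labelling, was 1.02 ± 0.0791 in tumours and 1.13 ± 0.126 in normal glands.

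On the deposited scaling, 6 of the 39 proteasome genes were higher in tumours (15.4%, against 31.4% of all genes) and 16 were lower (41%, against 27.6% of all genes), at a Benjamini-Hochberg adjusted p under 0.05 in limma. Their median log2 change, tumour minus normal, was -0.15, beside 0.02 for all genes. After quantile normalization 15 were higher (38.5%, against 33.9% of all genes) and 6 lower (15.4%, against 22.5% of all genes), and the median was 0.07, the same as that of all genes. The direction of the group as a whole therefore turned with the scaling. The called genes that kept their direction under both scalings were Psma1, Psma3, Psmb3, Psme2, Psmf1 and Psmg2, higher in tumours (6 genes, 15.4%, against 26.9% of all genes), and Psmc5, Psmd1, Psmd8, Psmd13, Psmd9 and Psmd10, lower in tumours (6 genes, 15.4%, against 20.8% of all genes). No proteasome gene separated the groups completely: 0 had every tumour above every normal gland (0.288% of all genes) and 0 had every tumour below every normal gland (2.27% of all genes).

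**Figure D1:**
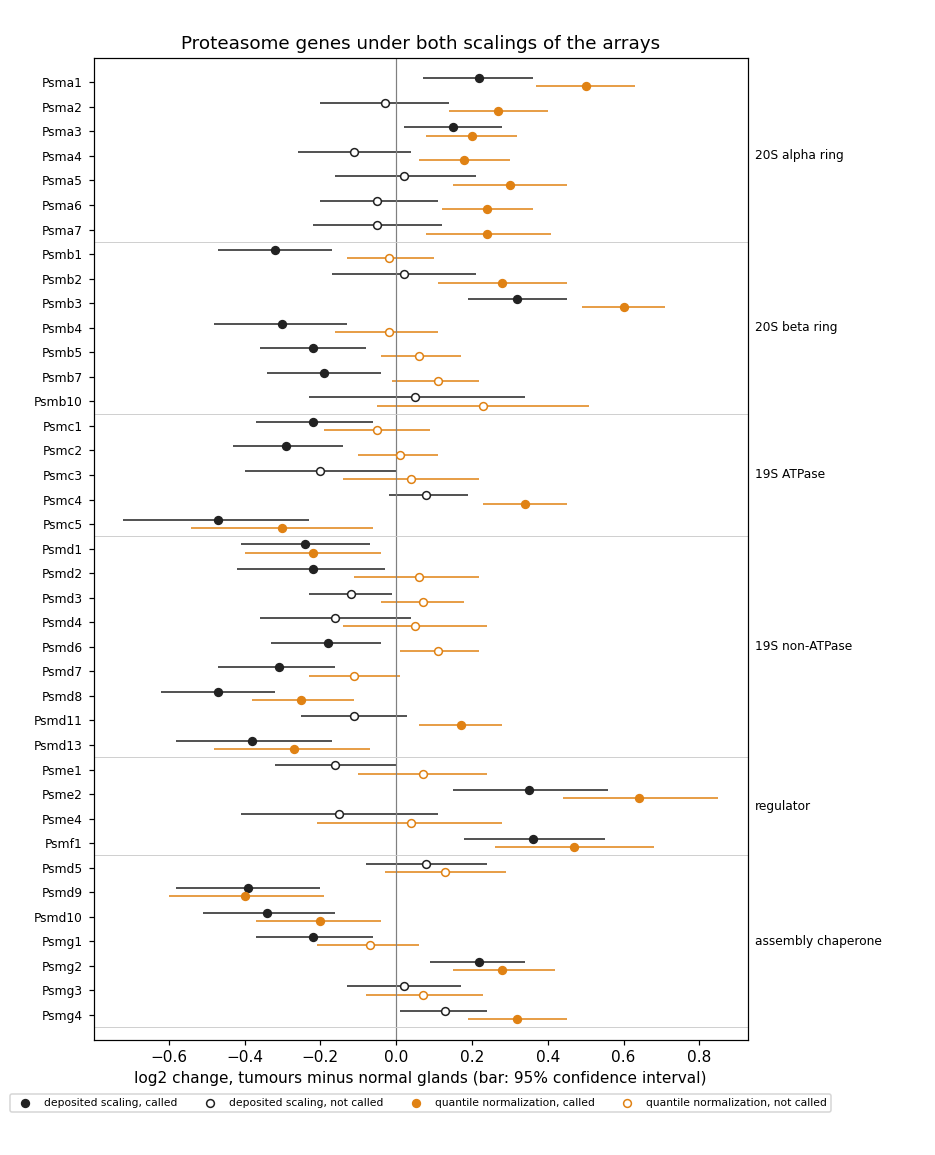
Log2 change of each proteasome gene, tumours minus normal glands, with its 95% confidence interval, by role, on the deposited scaling and after quantile normalization (24 tumours, 11 normal glands). Most deposited estimates lie below 0 and most quantile estimates lie to their right; Psmb3, Psme2 and Psmf1 lie above 0 and Psmd8, Psmd13 and Psmd9 below 0 under both.

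The shift between scalings was shared by other bright genes. Of the 39 genes, 29 are among the 2603 brightest of all genes, with mean signals of 385 to 7828. Those 2603 genes had a median change of -0.13 on the deposited scaling and 0.10 after quantile normalization, and the proteasome genes among them had medians of -0.15 and 0.11.

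The alpha ring rose on the quantile scale and hardly moved on the deposited one. All 7 measured alpha genes were higher in tumours after quantile normalization (33.9% of all genes; median change 0.24). On the deposited scaling limma called 2 higher (31.4% of all genes) and 0 lower (27.6% of all genes), with the same counts at an unadjusted p under 0.05 and a median of -0.03. Psma1 had signals of 673, 887 and 1194 in tumours (lowest, median and highest) and 594, 785 and 1049 in normal glands. The lowest normal value was that of Young, and 3 tumours exceeded every normal gland. Its log2 change was 0.22 (SE 0.07, limma adjusted p = 0.0115), and 0.50 after quantile normalization (adjusted p = 9.96e-08). Against the NewN glands alone it was 0.13 and not called on the deposited scaling (limma adjusted p = 0.14). Psma3 had signals of 192, 248 and 318 in tumours and 176, 216 and 268 in normal glands. The groups overlapped widely, and the change was 0.15 (SE 0.06, limma adjusted p = 0.0366), or 0.20 after quantile normalization (adjusted p = 0.00543). With 1 tumour per title number, which leaves 22 tumours, Psma3 changed by 0.14 and lost its call on the deposited scaling (limma adjusted p = 0.063). Psma2, Psma4, Psma5, Psma6 and Psma7 changed by -0.11 to 0.02 on the deposited scaling, none of them called, and by 0.18 to 0.30 after quantile normalization, all of them called.

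Of the 7 measured beta genes, 1 was higher on the deposited scaling, Psmb3 (31.4% of all genes). Another 4 were lower, Psmb1, Psmb4, Psmb5 and Psmb7 (27.6% of all genes). After quantile normalization limma called 2 higher, Psmb2 and Psmb3 (33.9% of all genes), and 0 lower (22.5% of all genes). At an unadjusted p under 0.05, 0 were lower as well. Psmb3, a structural beta subunit without a proteolytic site, had signals of 1412, 1794 and 2279 in tumours and 1288, 1405 and 1689 in normal glands. All 24 tumours lay above the median normal gland and 17 lay above the highest. Its change was 0.32 (SE 0.06, limma adjusted p = 6.13e-05), or 0.60 after quantile normalization (adjusted p = 1.65e-11). Psmb1, also structural, had signals of 829, 972 and 1331 in tumours and 1078, 1208 and 1593 in normal glands, and 16 tumours were below every normal gland. Its change of -0.32 (SE 0.07, limma adjusted p = 0.000433) became -0.02 after quantile normalization (adjusted p = 0.854), so the fall was tied to the deposited scaling.

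The catalytic subunits of the standard particle behaved like Psmb1. Psmb5, which carries the chymotrypsin-like site, had signals of 977, 1254 and 1705 in tumours and 1284, 1486 and 1649 in normal glands. A total of 13 tumours lay below the lowest normal gland. The change was -0.22 (SE 0.07, limma adjusted p = 0.00816) on the deposited scaling and 0.06 (adjusted p = 0.289) after quantile normalization. Psmb7, which carries the trypsin-like site, had signals of 701, 968 and 1307 in tumours and 984, 1138 and 1193 in normal glands. It also had 13 tumours below the lowest normal gland, and changed by -0.19 (SE 0.07, limma adjusted p = 0.0255), or 0.11 after quantile normalization (adjusted p = 0.115). The caspase-like subunit Psmb6 was not analysed here.

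**Figure D2:**
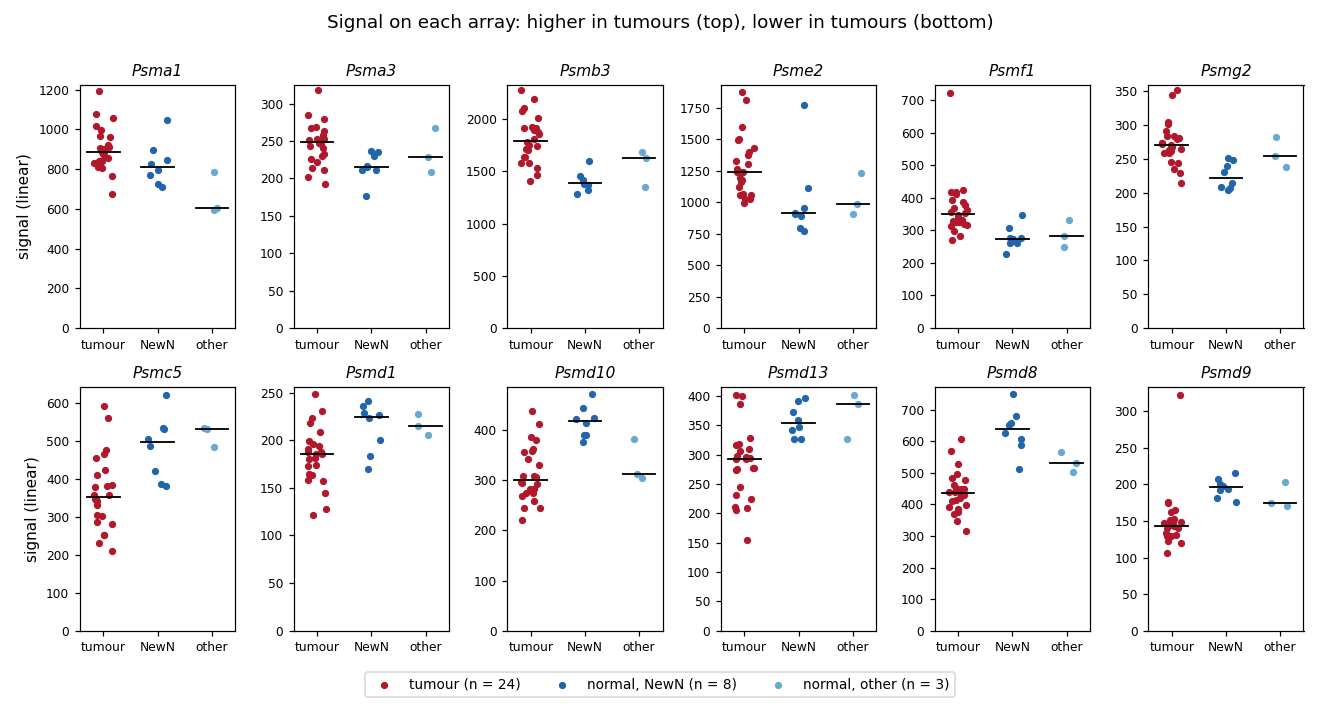
Deposited signal on each of the 35 arrays (linear axis from 0) for the 12 genes called in the same direction under both scalings, in 24 tumours, 8 NewN glands and 3 other normal glands, with bars at the group medians. Psmb3 lies above the highest normal gland in 17 tumours, Psmd8 and Psmd9 lie below the lowest in 21 each, and every gene has tumours within the normal range.

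The 19S particle was lower in tumours on the deposited scaling, for 9 of its 14 measured genes (27.6% of all genes) with none higher in limma (31.4% of all genes; 0 higher also at an unadjusted p under 0.05). After quantile normalization 4 were lower (22.5% of all genes) and 2 higher (33.9% of all genes), so that the count of lower genes came close to that of genes in general. Among the ATPases, Psmc5 had signals of 209, 351 and 593 in tumours and 381, 506 and 620 in normal glands. The lowest tumour was X4 and the highest X9, and 15 tumours were below every normal gland. The change was -0.47 (SE 0.12, limma adjusted p = 0.00117), or -0.30 after quantile normalization (adjusted p = 0.0295). Psmc2 had signals of 701, 1014 and 1206 in tumours and 984, 1289 and 1362 in normal glands. No tumour exceeded the median normal gland, and the change was -0.29 on the deposited scaling (limma adjusted p = 0.000993), but 0.01 after quantile normalization. Psmc1 was lower on the deposited scaling only (-0.22, against -0.05 after quantile normalization), and Psmc4 was higher after quantile normalization only (0.08 deposited, 0.34 quantile, adjusted p = 2.2e-06). Psmc3, at -0.20 and 0.04, was called under neither.

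The ATPase ring is surrounded by the non-ATPase subunits, of which Psmd8 and Psmd13, both in the lid that holds the deubiquitinase, had the largest changes. Psmd8 had signals of 316, 436 and 608 in tumours and 502, 608 and 749 in normal glands, and 21 tumours lay below the lowest normal gland. It fell by 0.47 on the log2 scale (SE 0.08, limma adjusted p = 3.17e-06), and by 0.25 after quantile normalization (adjusted p = 0.0021). Psmd13 had signals of 154, 292 and 402 in tumours and 326, 359 and 401 in normal glands, and 20 tumours lay below the lowest normal gland. It changed by -0.38 (SE 0.10, limma adjusted p = 0.00172), or -0.27 after quantile normalization (adjusted p = 0.0214). Psmd1, the scaffold of the base, changed by -0.24 and -0.22 and was called under both scalings. Psmd4, a ubiquitin receptor, had signals of 284, 486 and 768 in tumours and 482, 535 and 562 in normal glands, and was called under neither (-0.16 and 0.05). The lid subunit Psmd7 changed by -0.31 and -0.11, the ubiquitin-like domain receptor Psmd2 by -0.22 and 0.06 and the lid subunit Psmd6 by -0.18 and 0.11, and these were called lower on the deposited scaling only. Psmd11, which bridges lid and core, changed by -0.11 and 0.17 and was called higher after quantile normalization only.

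The core and the cap differed in their summaries under both scalings, though the difference between them was not tested. On the deposited scaling the 14 core genes counted 3 higher and 4 lower (31.4% and 27.6% of all genes), near the shares of all genes, with a median change of -0.04. After quantile normalization limma called 9 higher and 0 lower (33.9% and 22.5% of all genes), with 0 lower also at an unadjusted p under 0.05, and the median was 0.23. The 14 cap genes had medians of -0.22 and 0.02. For each array, the median deviation of the 14 genes from their means over all arrays was also taken. For the cap it was -0.55 to 0.27 in tumours and 0.09 to 0.33 in normal glands on the deposited scaling, with X4 the lowest. After quantile normalization it was -0.33 to 0.25 in tumours and -0.05 to 0.11 in normal glands, so the tumours lay on both sides of the normal range. For the core it was -0.46 to 0.28 in tumours and -0.19 to 0.26 in normal glands on the deposited scaling, with group medians of -0.02 and 0.01. After quantile normalization it was -0.13 to 0.23 in tumours and -0.29 to 0.13 in normal glands, with medians of 0.07 and -0.19.

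**Figure D3:**
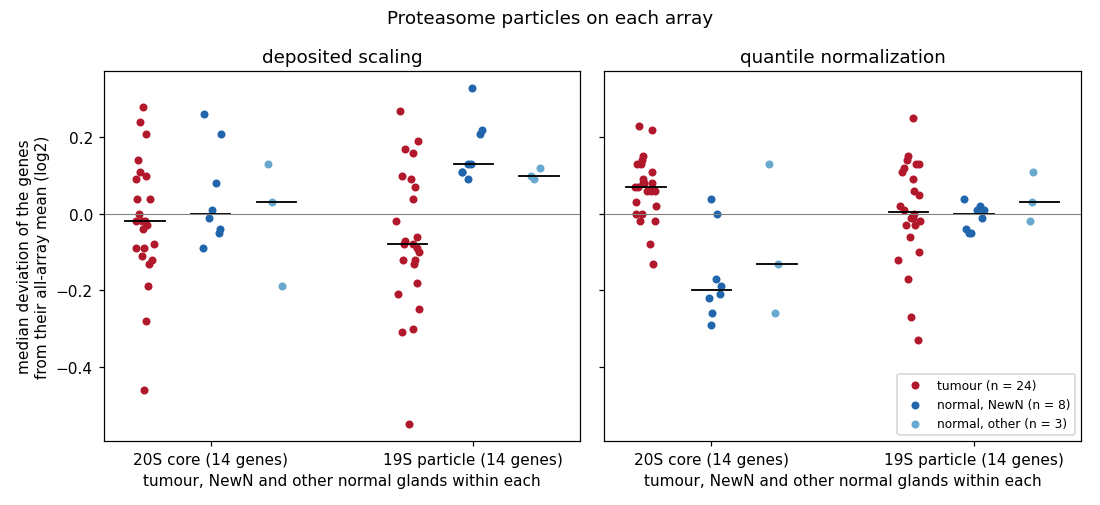
Median log2 deviation of the 14 core and 14 cap genes on each array from their means over all arrays, on the deposited scaling and after quantile normalization, for 24 tumours, 8 NewN glands and 3 other normal glands, with bars at the group medians. The cap is lower in most tumours on the deposited scaling and centred near the normal glands after quantile normalization, where the core is higher in most tumours.

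Of the 4 measured regulators, Psme2 and Psmf1 were higher in tumours under both scalings (26.9% of all genes), and Psme1 and Psme4 were called under neither. Psme2, a subunit of the PA28 alpha-beta cap, had signals of 991, 1237 and 1875 in tumours and 773, 914 and 1772 in normal glands. All 24 tumours lay above the median normal gland and 2 above the highest, the gland NewN6. Its change was 0.35 (SE 0.10, limma adjusted p = 0.00311), or 0.64 after quantile normalization (adjusted p = 2.32e-06). Its partner in the same ring, Psme1, had signals of 1307, 1800 and 2370 in tumours and 1568, 1965 and 2924 in normal glands and was called under neither scaling (-0.16 and 0.07). Psme4, a cap linked to histone degradation, had signals of 232, 442 and 719 in tumours and 353, 483 and 607 in normal glands and was also not called (-0.15 and 0.04). Psmf1, known in vitro as an inhibitor of the core, had signals of 271, 350 and 722 in tumours and 227, 276 and 346 in normal glands. The tumour X2 was the highest, and 13 tumours lay above every normal gland. Its change was 0.36 (SE 0.09, limma adjusted p = 0.00103), or 0.47 after quantile normalization (adjusted p = 0.00022).

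The assembly chaperones moved both ways. Psmd9, which assists assembly of the ATPase ring, had signals of 106, 144 and 322 in tumours and 170, 194 and 216 in normal glands. A total of 21 tumours lay below the lowest normal gland and 1, X22L, lay above the highest. Its change was -0.39 (SE 0.09, limma adjusted p = 0.000581), or -0.40 after quantile normalization (adjusted p = 0.00125). Psmd10, a chaperone of the same ring also known as gankyrin, had signals of 220, 301 and 439 in tumours and 304, 390 and 473 in normal glands. The groups overlapped, and it changed by -0.34 (SE 0.09, limma adjusted p = 0.00111), or -0.20 after quantile normalization (adjusted p = 0.0365). Psmg2, which pairs with Psmg1 in building the alpha ring, had signals of 214, 271 and 352 in tumours and 204, 238 and 283 in normal glands. The tumours exceeded every normal gland in 7 cases, and the change was 0.22 (SE 0.06, limma adjusted p = 0.00283), or 0.28 after quantile normalization (adjusted p = 0.000553). Psmg1 had signals of 253, 335 and 461 in tumours and 287, 405 and 474 in normal glands, and was lower on the deposited scaling only (-0.22, adjusted p = 0.0157; -0.07 after quantile normalization). Psmg4, with changes of 0.13 and 0.32, was called after quantile normalization only (adjusted p = 5.96e-05), although 14 tumours lay above every normal gland. Psmd5 and Psmg3 were called under neither scaling.

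Of the members outside these roles, Psmc3ip, which acts in meiotic recombination, changed by 0.20 under both scalings (limma adjusted p = 0.0105 and 0.0181 after quantile normalization), and Psme3ip1 was called under neither (-0.11 and 0.04).

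The calls differed with the set of normal glands, which also changed the number of glands. Against the 8 NewN glands alone, 5 of the 39 genes were higher (31.4% of all genes) and 18 lower (28.9% of all genes), with a median of -0.17. Against the 3 other normal glands, limma called 1 higher (Psma1, which was not called against the NewN glands; 6.87% of all genes) and 0 lower (11.1% of all genes), with 1 and 3 at an unadjusted p under 0.05. These contrasts share the tumours. Against the 3 glands Psmc5 changed by -0.55 (SE 0.22, limma adjusted p = 0.0801), beside -0.47 (SE 0.12) against all 11. Psmd10 changed by -0.10 (SE 0.15), beside -0.34 (SE 0.09). The part of the small number of glands in the lost calls was not tested. Without NewN4, NewN6 and X27.1N, the glands rich in lymphocyte markers, 8 were higher (30.5% of all genes) and 14 lower (26% of all genes). Without the tumour X4, on whose array the proteasome genes lay lowest, 6 were higher (30.9% of all genes) and 16 lower (27% of all genes). Between the NewN and the other normal glands themselves, limma called 0 higher (5.19% of all genes) and 0 lower (4.85% of all genes), with 6 higher and 0 lower at an unadjusted p under 0.05 and a median difference of 0.09. After quantile normalization that median turned to -0.06, and limma again called 0 in either direction, with 0 higher and 2 lower at an unadjusted p under 0.05. Another probe set of Psme4, not the one used here, was higher in the NewN than in the other normal glands (0.97, limma adjusted p = 0.0139). After quantile normalization its difference was 0.90 (limma adjusted p = 0.0461). The Psme4 probe set used (0.47) and the remaining one (0.12) were not called on the deposited scaling.

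Levels of the proteasome genes varied together across the 24 tumours. The median Pearson correlation over pairs of the 39 genes was 0.43, with pairs from -0.32 to 0.88 and 94.2% of pairs above 0, beside a median of 0.00 for pairs over all genes. After quantile normalization the median was 0.17, with 71.8% of pairs above 0. By role, the medians on the deposited scaling and after quantile normalization were 0.70 and 0.41 for the ATPases, 0.65 and 0.34 for the beta ring, 0.54 and 0.17 for the alpha ring, and 0.52 and 0.31 for the other cap subunits. Regulators and chaperones had lower medians on the deposited scaling, at 0.28 and 0.30. After quantile normalization both were at 0.19, slightly above the alpha ring. The closest pairs were Psmc5 with Psmd4 and Psmc2 with Psmd11, both at 0.88. Psma1 with Psmd8, Psmb1 with Psmd7, Psmc3 with Psmd4 and Psmb10 with Psme1 were each at 0.86. Psmg2 and Psmf1 followed the others least, with median correlations of 0.04 and 0.09. Across the 11 normal glands the median over pairs of the 39 genes was 0.24, with 68.7% of pairs above 0. After quantile normalization it was 0.21 there, with 66% of pairs above 0, beside 0.17 in tumours. These are descriptions. The 90th percentile of signal ran from 494 to 681 over the tumour arrays, and 29 of the 39 genes are among the 2603 brightest. Pairs over all genes are therefore not matched to them in brightness, and the part of array brightness in these correlations was not tested.

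Psmb10, the inducible counterpart of Psmb7, varied most among normal glands of the 7 beta genes counted here. The inducible Psmb8 and Psmb9, which are not counted, also ranged widely there, with signals of 601 to 2052 and 480 to 1906. It had signals of 285, 458 and 797 in tumours and 320, 396 and 952 in normal glands, and the change was 0.05 (SE 0.14, limma adjusted p = 0.782), or 0.23 after quantile normalization (adjusted p = 0.154). With NewN4, NewN6 and X27.1N left out the change was 0.31 and was called (limma adjusted p = 0.0406). The highest normal values came from those glands, at 553, 952 and 709, against 320 to 436 in the other normal glands. Leaving them out could therefore only raise the change. Ptprc, the leukocyte common antigen, was at 52.1 to 332 in tumours, against 762, 1451 and 840 in these same glands and 85.6 to 222 in the other normal glands. Over the 8 measured of 10 listed lymphocyte markers, summed signals were 594 to 1511 in tumours and 665 to 8798 in normal glands, with 4974, 8798 and 5562 in NewN4, NewN6 and X27.1N. Of the markers, 6 of 8 were lower and 1 higher in tumours; Cd79b was at the floor on all 24 tumour arrays and on 7 normal arrays. The part of lymphocytes in the levels of Psmb10 was not tested.

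The promoters are shown because Psmb10 and Psme2 carry matches to GAAA, any 2 bases and GAAA again, the core of the interferon-stimulated response element, and Psme1 and Psmb5 are set beside them as the ring partner of Psme2 and a standard catalytic subunit. The sequences are from RefSeq on build GRCr8, run 5' to 3' on the strand of the gene from 250 bases before its start to 50 after it, and capitals mark motif matches.
Psmb10 (chr19:50743243-50743542, minus strand): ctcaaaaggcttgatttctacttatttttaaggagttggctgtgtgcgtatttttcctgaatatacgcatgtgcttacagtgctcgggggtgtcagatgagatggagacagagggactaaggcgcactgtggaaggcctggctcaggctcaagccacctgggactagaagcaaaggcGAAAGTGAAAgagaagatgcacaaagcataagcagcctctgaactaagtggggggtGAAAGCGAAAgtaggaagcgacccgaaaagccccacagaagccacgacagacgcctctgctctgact
Psme2 (chr15:33052702-33053001, minus strand): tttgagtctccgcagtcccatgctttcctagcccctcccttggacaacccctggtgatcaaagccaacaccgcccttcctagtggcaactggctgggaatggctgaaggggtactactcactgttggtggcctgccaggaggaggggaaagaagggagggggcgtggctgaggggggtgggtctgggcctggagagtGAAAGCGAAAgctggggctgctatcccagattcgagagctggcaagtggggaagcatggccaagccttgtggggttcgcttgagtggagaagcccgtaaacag
Psme1 (chr15:33038721-33039020, plus strand): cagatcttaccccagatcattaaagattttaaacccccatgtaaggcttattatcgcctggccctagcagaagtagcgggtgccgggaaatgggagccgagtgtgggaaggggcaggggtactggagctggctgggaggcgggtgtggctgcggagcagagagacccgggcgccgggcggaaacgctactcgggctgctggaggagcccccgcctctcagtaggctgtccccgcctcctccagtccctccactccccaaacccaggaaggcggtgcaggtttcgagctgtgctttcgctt
Psmb5 (chr15:32047330-32047629, minus strand): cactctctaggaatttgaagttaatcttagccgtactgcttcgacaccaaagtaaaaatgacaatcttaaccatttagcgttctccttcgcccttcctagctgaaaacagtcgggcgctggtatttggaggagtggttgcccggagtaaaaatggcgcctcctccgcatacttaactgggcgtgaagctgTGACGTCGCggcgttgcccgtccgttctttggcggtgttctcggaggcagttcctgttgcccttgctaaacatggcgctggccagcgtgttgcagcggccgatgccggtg
The capitals in Psmb10 and Psme2 mark this core, with matches beginning at -73 and -17 in Psmb10 and at -53 in Psme2. Psmb5 has TGACNNNGC, the core of the antioxidant response element bound by CNC factors such as Nfe2l1 and Nfe2l2, at -60. None of the motifs searched has a whole match within the Psme1 window. On either strand, the interferon core occurred in 6 of the 39 promoters matched among the 41 genes (15.4%), beside 3.92% of 33469 promoters in the table. The others with it were Psma4, Psmb3, Psmd7 and Psmg4, a pair of core subunits, a lid subunit and an assembly chaperone. TGACNNNGC occurred in 7 (17.9%, beside 12.1%) and CCAAT in 20 (51.3%, beside 37.5%). A match is a description of the letters and not of binding.

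Across the 24 tumours, Psmb10 followed the other inducible genes. Pearson's r with Psme1 was 0.86 and Spearman's rho 0.91, each with a two-sided permutation p adjusted over 6 relations of 3e-05, and r was 0.80 without X6 and X25L, the tumours farthest from the median Psmb10 level. With Psmb8, the counterpart of Psmb5, r was 0.83 and rho 0.78 (adjusted permutation p = 3e-05 for both), and r was 0.75 without X6 and X25L. With Psme2, r was 0.72 and rho 0.80 (adjusted permutation p = 0.00016 and 4e-05), and with Psmb9 they were 0.61 and 0.63 (adjusted permutation p = 0.00226 and 0.00201). Without X6 and X25L those r were 0.72 and 0.53. With Psmb7, the subunit it replaces, r was 0.50 and rho 0.50 (adjusted permutation p = 0.014 and 0.0168), 0.45 without X6 and X25L, and after quantile normalization r was 0.39 (adjusted permutation p = 0.0741). With Ptprc, r was -0.04 and rho -0.07 (adjusted permutation p = 0.861 and 0.734), and r was 0.16 without X6 and X25L. Ptprc lay low in the tumours, at 52.1 to 332 beside a floor of 41.6, and the part of leukocytes was not tested.

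The balance between inducible and standard subunits was read as the log2 difference of their probe sets on each array, whose absolute level has no meaning but whose difference between groups does. For Psmb8 against Psmb5 it was -0.02 ± 0.32 in tumours and -0.66 ± 0.47 in normal glands (SD, n = 24 and 11), ranging from -0.96 to 0.52 in tumours and from -1.24 to 0.42 in normal glands. The difference of 0.65 had a two-sided permutation p of 0.00011 (0.00022 adjusted over 2 ratios), and 23 of 24 tumours lay above the median normal gland, the exception being X25L. After quantile normalization the difference was 0.64 (adjusted permutation p = 0.00026). For Psmb10 against Psmb7 it was -1.05 ± 0.31 in tumours and -1.30 ± 0.46 in normal glands, and the difference of 0.25 did not pass (adjusted permutation p = 0.0729; 0.13 with adjusted p = 0.328 after quantile normalization). Without NewN4, NewN6 and X27.1N, the lymphocyte-rich glands, the differences were 0.89 for Psmb8 against Psmb5 and 0.48 for Psmb10 against Psmb7 (adjusted permutation p = 2e-05 and 0.00031). Those glands had the highest normal values of both ratios. Leaving them out could only widen the differences, so these p-values decide nothing further.

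**Figure D4:**
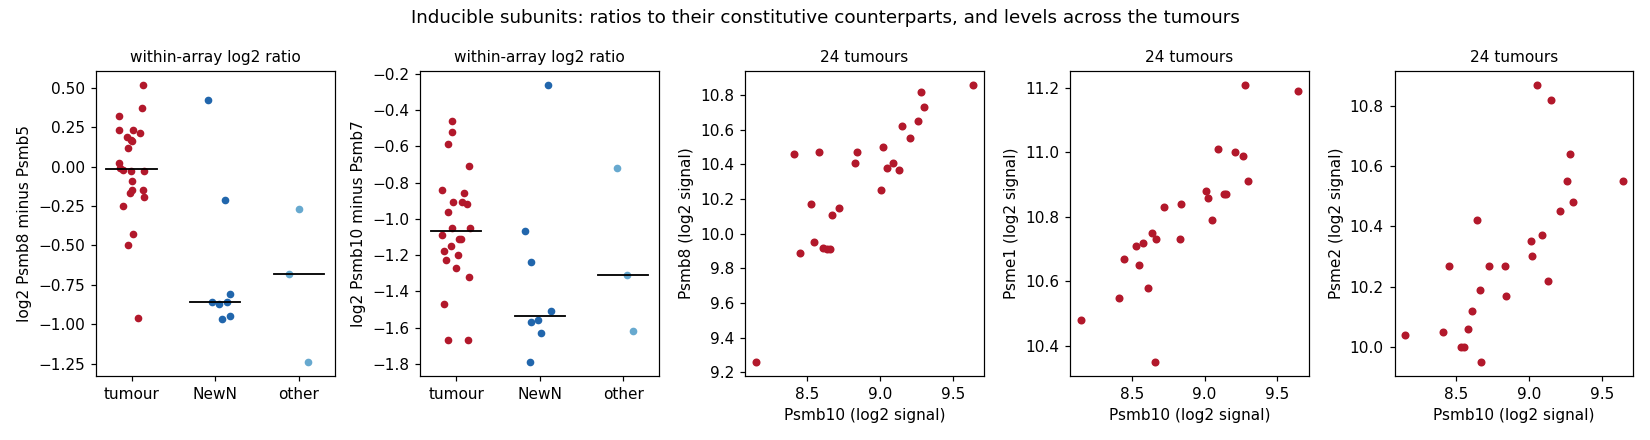
Left panels, log2 difference of Psmb8 minus Psmb5 and of Psmb10 minus Psmb7 on each array for tumours, NewN glands and other normal glands, with bars at the medians; right panels, Psmb8, Psme1 and Psme2 against Psmb10 over the 24 tumours (log2 signal). Most tumours lie above most normal glands for Psmb8 minus Psmb5, the normal glands NewN4, NewN6 and X27.1N lie highest among the normal glands in both, and all 3 genes rise with Psmb10.

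Psmb8 and Psmb9 themselves were higher in tumours. Psmb8 had signals of 612, 1347 and 1862 in tumours and 601, 834 and 2052 in normal glands, with a change of 0.43 (limma adjusted p = 0.0103), or 0.70 after quantile normalization. Psmb9 had signals of 711, 1236 and 2139 in tumours and 480, 805 and 1906 in normal glands, with a change of 0.57 (limma adjusted p = 0.0013), or 0.84 after quantile normalization. The highest normal value of both was in NewN6. In the wider list of the inducible proteasome and class I antigen processing, 6 of 14 measured genes of 17 listed were higher and 1 lower (31.4% and 27.6% of all genes), with a median change of 0.15. After quantile normalization 7 were higher and 1 lower (33.9% and 22.5% of all genes), with a median of 0.36. Beside Psmb9, Psmb8 and Psme2, the higher ones were the peptide transporter subunit Tap1 (0.42, and 0.45 after quantile normalization), the transporter's partner Tapbp (0.39 and 0.61) and the chaperone Calr (0.22 and 0.46). The other transporter subunit, Tap2, was lower (-0.57 and -0.55), and these 4 were called under both scalings. On the deposited scaling against the NewN glands alone, limma called 4 of the list higher and 2 lower (31.4% and 28.9% of all genes). Changes ran from -0.84 to 0.44. Against the 3 other normal glands alone it called 1 higher and 0 lower (6.87% and 11.1% of all genes). Changes there ran from -0.24 to 0.91, with 4 higher and 0 lower at an unadjusted p under 0.05.

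Proteins that work with the particle moved both ways. Of 18 listed proteasome partners 13 were measured, of which 2 were higher and 3 lower (31.4% and 27.6% of all genes), with a median of -0.08. After quantile normalization 5 were higher and 2 lower (33.9% and 22.5% of all genes), with a median of 0.05. Deposited changes over this list ran from -0.66 to 0.45 against the NewN glands alone and from -0.48 to 0.66 against the 3 other normal glands. Ecpas, a scaffold that holds the particles together, was lower (-0.61, and -0.32 after quantile normalization), as was the ubiquitin receptor Adrm1 (-0.35 and -0.23). The nuclear import factor of the proteasome, Akirin2, was lower on the deposited scaling only (-0.28 and -0.15). Ddi2, a protease that cleaves Nfe2l1, was higher (0.51 and 0.49), and so was the cap-bound thioredoxin Txnl1 (0.35 and 0.53). Pomp, the maturation chaperone of the core, was higher after quantile normalization only (0.06 and 0.35).

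Transcription factors linked to proteasome genes counted 2 higher and 4 lower of 10 measured among 11 listed (31.4% and 27.6% of all genes), with a median of -0.03. After quantile normalization 3 were higher and 3 lower (33.9% and 22.5% of all genes), with a median of -0.01. On the deposited scaling against the NewN glands alone, limma called 2 higher and 4 lower (31.4% and 28.9% of all genes), with a lowest change of -0.69. Against the 3 other normal glands alone it called 2 higher and 0 lower (6.87% and 11.1% of all genes). There, 0 were lower also at an unadjusted p under 0.05, and the lowest change was -0.28. Nfe2l1, which raises transcription of proteasome genes when the particle is inhibited, had signals of 186, 234 and 419 in tumours and 220, 392 and 557 in normal glands. It was lower by a log2 change of -0.58 (limma adjusted p = 7.74e-05), and by -0.46 after quantile normalization. Its dimer partner Mafk (-0.29, and -0.19 after quantile normalization) and the Nfe2l2 inhibitor Keap1 (-0.32 and -0.22) were also lower, while the CCAAT-binding subunit Nfya (0.51 and 0.48) and the proliferation factor Foxm1 (0.43 and 0.36) were higher, and these 4 were called in the same direction after quantile normalization.

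Upstream of the particle, 31 measured of 39 listed ubiquitin genes counted 2 higher and 10 lower on the deposited scaling (31.4% and 27.6% of all genes; median -0.09). After quantile normalization 12 were higher and 6 lower (33.9% and 22.5% of all genes; median 0.12). On the deposited scaling against the NewN glands alone, limma called 3 higher and 9 lower (31.4% and 28.9% of all genes), with changes from -0.98 to 2.44. Against the 3 other normal glands alone it called 1 higher and 1 lower (6.87% and 11.1% of all genes), with changes from -0.47 to 0.90. The genes called higher under both scalings were Ube2c (2.02, and 2.01 after quantile normalization), the conjugating enzyme of the anaphase-promoting complex, and Uba6 (0.66 and 0.64), an activating enzyme. The largest falls were those of the conjugating enzymes Ube2r2 (-0.84 and -0.58), Ube2h (-0.78 and -0.55) and Ube2a (-0.51 and -0.39). Of 14 measured genes, from 16 listed, of the p97 unfoldase and endoplasmic reticulum degradation, 2 were higher and 7 lower (31.4% and 27.6% of all genes; median -0.16). After quantile normalization 3 were higher and 2 lower (33.9% and 22.5% of all genes; median 0.02). Deposited changes over this list ran from -0.70 to 0.30 against the NewN glands alone and from -0.55 to 0.28 against the 3 other normal glands. Nploc4 (0.26 and 0.27) and Ufd1 (0.24 and 0.38), the p97 cofactors that recruit ubiquitinated proteins, were higher. The ligase adaptor Sel1l (-0.65 under both scalings), Herpud1 (-0.39 and -0.22) and the membrane channel protein Derl2 (-0.37 and -0.34) were lower. Of the genes named here for both lists, Herpud1 alone was not called after quantile normalization.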

How the data were processed

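The 24 tumours and 11 normal glands were each measured on an RAE230A oligonucleotide array. The authors deposited 1 linear intensity per probe set and array. Their software, background correction and scaling were not given in the sources used here, and the lowest value was 1, taken by 3601 values (0.648%). Of 15923 probe sets, 57 controls were left out, leaving 15866. Of these, 12783 carry 1 symbol in the platform annotation, 312 carry several and were not named, and 2771 carry none. Entrez identifiers of 12748 matched RefSeq, and 0 symbols changed. Each of 10411 genes was read by its probe set of highest mean signal. Psmb6 and Psme3, seen only on probe sets with several symbols, and Psma8, Psmb11, Psmc6, Psmd12 and Psmd14 are not analysed here. Psmd11 has 2 probe sets and Psme4 has 3, with no call in opposite directions between them.

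Values under the 10th percentile (41.6) were set to it, log2 was taken, and no proteasome gene was at that floor on any array. Group differences were fitted with limma 3.58.1 under R 4.3.3 (lmFit, eBayes with trend and robust estimation, no covariate), on the deposited scaling and after quantile normalization, and p-values were adjusted by Benjamini-Hochberg over the whole table. The fit was tested on simulated data. Ratios and correlations used two-sided permutation tests with 100000 resamples, in Python 3.11.15 with numpy 2.4.6, pandas 2.3.3 and matplotlib 3.10.9. Precision is limited by the number of arrays.

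Named were the members of each role with the largest changes, a panel of known genes, and the largest called changes of each pathway list. The members and lists were chosen with earlier results of these data known. The alternatives covered scaling, floor, dim probe sets, the spread model, array weights, the normal glands used, single tumours, title numbers and probe sets per gene. The planned ratio of Psmb9 to Psmb6 was not run because Psmb6 had no probe set with 1 symbol.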

Additional observations from a re-analysis of the deposited data

How the results depend on the processing

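On the deposited scaling the counts stayed between 5 and 8 higher and between 14 and 21 lower of 39 genes in every alternative except those named next. Quantile normalization gave 15 higher, 6 lower and a median of 0.07, and 16, 6 and 0.09 without the tumour X4. With quantile normalization against the NewN glands alone the counts were 15 higher and 3 lower with a median of 0.07, and against the 3 other normal glands alone 5 higher and 0 lower with a median of 0.10 (limma; 8 and 1 at an unadjusted p under 0.05). Against the 3 other normal glands alone on the deposited scaling 1 was higher and 0 lower. The combined settings and the one without X4 were chosen after the data were examined. A title number joins a tumour and a normal gland only in X27 with X27.1N and X28 with X28.1N, while X25L with X25R and X29.1 with X29.2 share one among tumours. With the title number as a replicate block, limma on the first 4 arrays called 0 higher and 0 lower (0 and 3 at an unadjusted p under 0.05). The cause of these shifts was not tested. Without NewN4, NewN6 and X27.1N, which had the highest normal values, the difference in Psmb10 over Psmb7 was 0.48 and past the threshold. After quantile normalization the correlation of Psmb10 with Psmb7 was 0.39 and no longer past that threshold.

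Over all alternatives the change of a gene kept its direction and side of the threshold in 547 cases, was weaker in 77, stronger in 32 and turned direction in 84. Some turns were close to 0 and called under neither setting, but others involved a called gene. With quantile normalization, Psma2, Psma4, Psma6, Psma7 and Psmd11 turned and were called higher. Psmb5, Psmb7, Psmc2, Psmd2 and Psmd6 turned from a lower call on the deposited scaling to no call. After quantile normalization these turned: Psma2 0.27, Psma4 0.18, Psma6 0.24, Psma7 0.24, Psmb5 0.06, Psmb7 0.11, Psmc2 0.01, Psmc3 0.04, Psmd2 0.06, Psmd3 0.07, Psmd4 0.05, Psmd6 0.11, Psmd11 0.17, Psme1 0.07 and Psme4 0.04. Without X4 as well they were Psma2 0.28, Psma4 0.18, Psma6 0.24, Psma7 0.24, Psmb5 0.06, Psmb7 0.11, Psmc2 0.01, Psmc3 0.05, Psmd2 0.09, Psmd3 0.07, Psmd4 0.06, Psmd6 0.12, Psmd11 0.18, Psme1 0.06 and Psme4 0.07. With quantile normalization against the NewN glands they were Psma2 0.22, Psma4 0.21, Psma6 0.30, Psma7 0.27, Psmb5 0.07, Psmb7 0.12, Psmc3 0.06, Psmd2 0.01, Psmd3 0.05, Psmd4 0.07, Psmd6 0.07, Psmd11 0.18 and Psme1 0.01. Against the 3 other glands with quantile normalization they were Psma2 0.40, Psma4 0.10, Psma6 0.06, Psma7 0.19, Psmb4 0.00, Psmb5 0.06, Psmb7 0.07, Psmc2 0.09, Psmd2 0.18, Psmd3 0.13, Psmd6 0.23, Psmd11 0.12, Psme1 0.22, Psme4 0.28 and Psmg1 0.04. On the deposited scaling against the 3 other glands they were Psma2 0.23, Psma7 0.01, Psmd2 0.01, Psmd3 0.02, Psmd6 0.06, Psme1 0.05, Psme4 0.19 and Psmg3 -0.01, and in the block Psma2 0.14, Psma7 0.07, Psmb2 -0.21, Psmb10 -0.43, Psmc4 -0.06, Psmd2 0.16, Psmd3 0.03 and Psmg3 -0.07. Array weights turned Psma6 (0.00), Psma7 (0.01) and Psmg3 (-0.01). Psma5 turned against the NewN glands (-0.06) and without Young (-0.00), Psma2 (0.02) and Psma7 (0.07) without NewN4, NewN6 and X27.1N, Psma5 (-0.01) and Psmg3 (-0.02) without X22L, and Psma2 (0.01) without X4. The tumours were compared with 11 normal glands of which 3 were rich in lymphocyte markers, no animal is named, and both scalings rest on different assumptions about the brightest genes. Signals of different probe sets cannot be set against each other.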
